A study of Mus musculus with 16 samples.

Results

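Apoc2 and 5 of its neighbours on mouse chromosome 7 (Apoe, Apoc1, Clptm1, Tomm40 and Bcl3) are described here across the spermatogenic cells of Tex10-deficient and wild-type mice. They are 6 of the 13101 genes of the deposited table, matched by gene symbol, and all 6 were found. Apoc2 was chosen by its FPKM values in these libraries, which stood above 0 in Tex10-deficient animals and at 0 in the wild type, so its own genotype difference is given as a description, with no test. The other 5 genes lie near it on the chromosome, and they bear on whether that difference was shared by the locus. They are not the 5 nearest genes, and they were chosen with earlier results of these data known. Bulk polyA RNA-seq was done on sorted spermatogonia, on spermatocytes labelled MI and MII, and on spermatids, with 2 libraries for each cell type and genotype, 16 in all. The Tex10-deficient animals (Tex10f/-; Stra8iCre) had 1 floxed and 1 null Tex10 allele and the Stra8iCre recombinase, which is driven by the promoter of Stra8, a gene of differentiating spermatogonia. The labels call the other animals wild type and give them no transgene. Every animal was a C57BL/6J male of 8 weeks. The sources used here do not give the sorting method. No label states that the 2 libraries of a group were from different animals, so a p-value measures only how far these samples spread, and that spread may be technical.

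Apolipoproteins coat the particles that carry fats and cholesterol in blood and tissue fluid. Apoc2 is the cofactor that lipoprotein lipase needs to release fatty acids from triglycerides, Apoe binds cell-surface receptors that take the particles up, and Apoc1 slows the uptake of particles and inhibits the cholesteryl ester transfer protein in humans. Their genes form a cluster with Apoc4 that is active mainly in liver and in macrophages, and in testis Apoe is known from Leydig cells and macrophages. The cluster sits between genes of unrelated function, among them Clptm1, a membrane protein that holds GABA-A receptors in the endoplasmic reticulum, Tomm40, the channel for protein import through the outer mitochondrial membrane, and Bcl3, an I-kB family protein that acts as a nuclear partner of NF-kB.

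In build mm10 (GRCm38), all 6 genes lie on the minus strand of chromosome 7. Clptm1 (XLOC_019505) spans chr7:19631571-19665033 and begins 6.546 kb past the 3′ end of Apoc2 (XLOC_019506, chr7:19671579-19677941). On the other side, Apoc1 (XLOC_019507, chr7:19689481-19692660) lies 11.54 kb away, Apoe (XLOC_019508, chr7:19696109-19699188) 18.168 kb, Tomm40 (XLOC_019509, chr7:19701313-19715438) 23.372 kb and Bcl3 (XLOC_019513, chr7:19808462-19822770) 130.521 kb. Positions are from GENCODE M21. Apoc4 ends just upstream of the start of Apoc2, and the annotation also holds Gm44805, a transcript that runs through both genes and has 5 of its 7 exons over exons of Apoc2. Reads from this joint transcript and from Apoc2 cannot be told apart in a gene-level table. Apoc4, Gm44805 and Relb, which lies beyond Clptm1, had no row among the genes used here. Whether they changed with Apoc2 therefore cannot be said.

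The DNA just before 3 of the genes is printed because the results turn on the contrast between them. Apoc2 was at 0 in the wild type, Clptm1 was even in all libraries, and Apoe reached the highest level of the 6. Each sequence is the minus strand, 5′ to 3′, ending 1 base before the annotated gene, with CpG dinucleotides in capitals. The sequences are from RefSeq (GRCm38.p6). The Apoc2 sequence is the whole 141-base gap to Apoc4 (chr7:19677942-19678082), the Apoe sequence 250 bases (chr7:19699189-19699438) and the Clptm1 sequence 247 bases (chr7:19665034-19665280).
Apoc2: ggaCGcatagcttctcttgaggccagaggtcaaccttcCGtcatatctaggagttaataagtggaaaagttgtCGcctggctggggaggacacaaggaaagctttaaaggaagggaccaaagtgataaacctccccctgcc
Apoe: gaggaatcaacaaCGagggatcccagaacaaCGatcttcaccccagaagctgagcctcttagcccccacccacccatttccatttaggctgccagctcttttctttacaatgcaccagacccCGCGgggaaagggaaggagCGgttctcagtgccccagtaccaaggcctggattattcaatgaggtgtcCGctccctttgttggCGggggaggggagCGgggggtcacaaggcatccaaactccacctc
Clptm1: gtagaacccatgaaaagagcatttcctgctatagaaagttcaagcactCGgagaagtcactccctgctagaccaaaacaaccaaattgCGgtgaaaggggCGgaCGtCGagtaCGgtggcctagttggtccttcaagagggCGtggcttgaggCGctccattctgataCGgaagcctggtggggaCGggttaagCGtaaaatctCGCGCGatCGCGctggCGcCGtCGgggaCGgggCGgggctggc
The gap before Apoc2 holds 3 CpGs in 141 bases, the Apoe sequence 8 in 250 and the Clptm1 sequence 21 in 247. Over 250 bases upstream of the RefSeq start, Apoc2 had 6 CpGs, Apoe 8, Tomm40 16, Bcl3 19 and Clptm1 22, and the median of 32851 mouse promoters was 6. The promoter table matched 5 of the 6 genes, all but Apoc1. Both strands of these windows were searched for 5 motifs. The letters TATAAA were taken for a TATA element, which initiates transcription in many regulated genes, and GGGCGG for a GC box, the site of Sp1 in many housekeeping genes. The CCAAT box was searched under that spelling, and TGACGTCA stood for the cyclic AMP response element, the site of CREB and CREM. The last was the direct repeat read by liver X receptors, AGGTCA given 2 times with 4 letters of any kind between. None of the 5 was found before Apoc2 or Apoe. There were 2 GC boxes before Clptm1, 3 before Bcl3 and 3 before Tomm40, which also had 5 CCAAT matches. Over all promoters the TATA element occurred in 12.4%, the GC box in 32.7%, the CCAAT box in 33.8% and the cyclic AMP response element in 1.55%. The liver X receptor repeat occurred in 5 of 32851 promoters. A GC box and a cyclic AMP response element each hold a CpG, so these counts overlap. A match is a run of letters and not a measured binding site.

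Tex10 itself, the gene targeted in these animals, lay between 7.29 and 34.8 FPKM (fragments relative to the length of the transcript and to all fragments mapped in that library) in the Tex10-deficient libraries and between 13.8 and 116 FPKM in the wild type. Within each cell type both Tex10-deficient libraries were below both wild-type libraries, with means at a ratio of 0.309 in spermatogonia, 0.211 in MI cells, 0.374 in MII cells and 0.31 in spermatids. Groups follow the sample titles. In 6 of 8 Tex10-deficient libraries a second label field names another cell type, and across all genes 8 of 8 were nearest to wild-type libraries of the type in the title, against 2 of 8 for the type in the field. Spermatogonia markers summed highest in the libraries titled spermatogonia (164 to 230 FPKM in Tex10-deficient and 244 to 321 FPKM in wild-type libraries, 8 genes), and spermatid markers in those titled spermatids (6546 to 7923 FPKM in Tex10-deficient and 11127 to 13201 FPKM in wild-type libraries, 10 genes). The MII libraries went against their label. Their 11 spermatocyte markers summed to 86.0 and 149 FPKM in Tex10-deficient and 184 and 522 FPKM in wild-type libraries, where the MI libraries held 1902 to 2786 FPKM in Tex10-deficient and 1967 to 2363 FPKM in wild-type mice. The spermatid libraries had a still higher sum, 2480 to 3264 FPKM in Tex10-deficient and 2776 to 3243 FPKM in wild-type mice, but this was mostly Ldhc. Ldhc averaged 2502 FPKM in Tex10-deficient and 2572 FPKM in wild-type spermatids, against 1426 and 986 FPKM in MI. The other spermatocyte markers were lower in spermatids than in MI in both genotypes, except Spo11 in Tex10-deficient mice (12.1 against 9.45 FPKM). Summed markers of Leydig cells, peritubular and endothelial cells and Sertoli cells were highest in the MII libraries. The peritubular and endothelial sum was mostly Dcn (3579 FPKM in Tex10-deficient and 2801 FPKM in wild-type MII libraries). Dcn, Col1a1 and Cdh5 were highest in MII in both genotypes, but Acta2 and Tagln were higher in spermatogonia. Acta2 averaged 23.5 FPKM in Tex10-deficient and 32.7 FPKM in wild-type spermatogonia, against 15.2 and 24.3 FPKM in MII. Myh11 was higher in spermatogonia only in Tex10-deficient mice. The name MII is therefore used as a label only. In bulk RNA, fewer cells of a type and less RNA per cell cannot be told apart.

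Apoc2 was present in Tex10-deficient libraries of all 4 cell types and in no wild-type library. The Tex10-deficient pairs were 6.41 and 3.83 FPKM (spermatogonia), 24.7 and 8.15 FPKM (MI), 0 and 2.06 FPKM (MII) and 7.47 and 5.19 FPKM (spermatids). In the wild type it was listed at 0 in all 8 libraries. Apoc2 was thus above 0 in 7 of 8 Tex10-deficient libraries, and only in MII spermatocytes, where 1 of the 2 Tex10-deficient libraries was at 0, did the genotypes overlap. An exact 0 in an FPKM table can also be a failed estimate, and with only FPKM the number of reads behind these values is unknown, so no fold change is given.

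In the Tex10-deficient libraries the level of Apoc2 varied between cell types, with a wide spread within some of them. Its means were 16.4 ± 11.7 FPKM in MI cells, 6.33 ± 1.62 in spermatids, 5.12 ± 1.83 in spermatogonia and 1.03 ± 1.45 in MII spermatocytes (SD, n = 2 each). MI spermatocytes led, but the SD of the MI pair was larger than its distance to spermatids. Spermatids and spermatogonia overlapped, and both spermatogonia values were above both MII values. Over the 8 libraries the median was 5.80 FPKM. Clptm1, the nearest gene of the table, offers a yardstick per length: Apoc2 came to 20.8% and 11.8% of Clptm1 in Tex10-deficient spermatogonia, 61.4% and 25.2% in MI cells, 0% and 6.41% in MII cells, and 17.2% and 17.4% in spermatids.

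**Figure D1:**
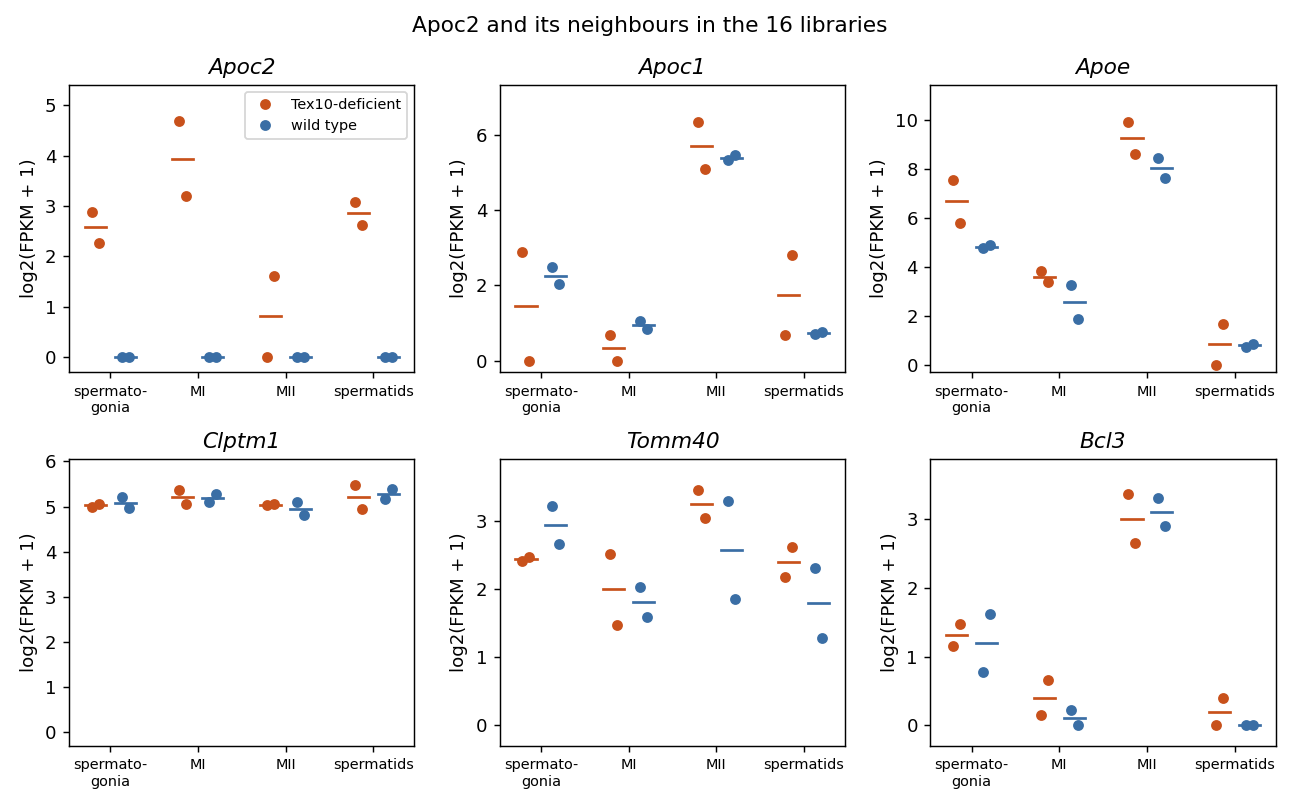
Levels of Apoc2, Apoc1, Apoe, Clptm1, Tomm40 and Bcl3 on the log2(FPKM + 1) scale in each of the 16 libraries, by cell type. Each point is 1 library, short lines are the mean of the 2 libraries of a group, and each panel has its own vertical axis. Apoc2 is above 0 in 7 of 8 Tex10-deficient libraries and at 0 in the 8 wild-type libraries, while Clptm1 lies between 27.0 and 43.5 FPKM in all 16.

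Across the table this on and off pattern was held by 1 gene, Apoc2 itself. Of all genes, 1 was listed at 0 in the 8 wild-type libraries, and it was the same gene that was above 0 in at least 7 Tex10-deficient libraries. In the reverse direction 1 gene, the olfactory receptor Olfr1188 on chromosome 2, was listed at 0 in all 8 Tex10-deficient libraries, and it was above 0 in 4 of 8 wild-type libraries with a highest value of 9.67 FPKM. The table had been filtered by the authors in a way the sources do not give, so genes absent from it could not be counted.

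Of the other genes, Cfdp1 (chromosome 8), a chromatin protein gene, had the profile most like that of Apoc2 over the 16 libraries, with Pearson r = 0.74 on the log2(FPKM + 1) scale among 13099 genes ranked. Cfdp1 nevertheless had a median of 33.0 FPKM in Tex10-deficient libraries (range 29.4 to 55.9) and 29.1 FPKM in wild-type libraries (25.1 to 34.4), so it lacked the absence from the wild type. After it came Trmt1 (0.63), a tRNA methyltransferase, Nomo1 (0.63), Aasdh (0.62), Psmg1 (0.62), a proteasome assembly chaperone, Ubac1 (0.61), Galns (0.60), a lysosomal sulfatase, Vps29 (0.59), a retromer subunit, Strn4 (0.59) and Chaf1b (0.59), a chromatin assembly factor subunit. Their correlations rest on 8 tied wild-type values at 0 and share the genotype and the cell types, so they describe likeness only. Among the neighbours, r was 0.20 for Clptm1, −0.08 for Tomm40, −0.15 for Apoe, −0.30 for Bcl3 and −0.35 for Apoc1, which places none of them near the top of the ranking.

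Clptm1, 6.546 kb from Apoc2 on the same strand, stayed close to one level in all libraries. The Tex10-deficient pairs were 30.9 and 32.3 FPKM (spermatogonia), 40.2 and 32.3 FPKM (MI), 31.6 and 32.1 FPKM (MII) and 43.5 and 29.9 FPKM (spermatids). The wild-type pairs were 35.8 and 30.5 FPKM (spermatogonia), 33.4 and 38.1 FPKM (MI), 33.4 and 27.0 FPKM (MII) and 34.9 and 40.7 FPKM (spermatids). The genotypes overlapped in all 4 cell types. Averaged over cell types, the log2 change of Clptm1 was −0.01 (SE 0.13, limma adjusted p = 0.99). Its coefficient of variation over the 16 libraries was 13.0%. The median of the 3104 genes within 2-fold of its mean level, Clptm1 included, was 73.3%. Of these genes 3 (0.0966%), again counting Clptm1 itself, had one as low. The F tests across cell types gave an adjusted p of 0.81 in Tex10-deficient and 0.65 in wild-type libraries (limma), but with quantile normalization Clptm1 passed this test in both genotypes.

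Of the 5 neighbours, Apoe had the smallest p for a genotype difference, without passing the test. In spermatogonia it stood at 187 and 54.3 FPKM in Tex10-deficient and 25.9 and 28.8 FPKM in wild-type libraries. In MI spermatocytes it stood at 13.1 and 9.42 FPKM in Tex10-deficient and 8.67 and 2.66 FPKM in wild-type libraries. Both Tex10-deficient values were above both wild-type values in each of these cell types, and the first spermatogonia library was much higher than the second. In MII spermatocytes Apoe reached 952 and 390 FPKM in Tex10-deficient and 347 and 196 FPKM in wild-type libraries, again without overlap. In spermatids it was listed at 0 and at 2.21 FPKM in Tex10-deficient and at 0.649 and 0.804 FPKM in wild-type libraries, which overlap. A separation of this kind was found for 16.9% of all tested genes in spermatogonia, 15.7% in MI and 17.3% in MII spermatocytes, and in all 3 cell types at once for 89 genes (0.679%).

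On the log2(FPKM + 1) scale, which understates the change of low values, the Apoe change was 1.84 in spermatogonia (SE 0.65, limma adjusted p = 0.55), 1.03 in MI spermatocytes (SE 0.65, adjusted p = 1), 1.22 in MII spermatocytes (SE 0.65, adjusted p = 0.46) and 0.05 in spermatids (SE 0.65, adjusted p = 1). The average over the 4 cell types was 1.04 (SE 0.33), with an unadjusted p of 0.0068 and an adjusted p of 0.25 in limma. The F test of whether the change differed between cell types gave an adjusted p of 1 for Apoe (limma). The profile of Apoe across cell types was unlike that of Apoc2, since its highest values were in the MII libraries, where Apoc2 was lowest.

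Markers of Leydig cells and macrophages, which both make Apoe, are set beside it. In the MII libraries the 10 Leydig cell markers (among them Insl3, Star and Cyp17a1) summed to 1542 and 1351 FPKM in Tex10-deficient and 1474 and 970 FPKM in wild-type libraries, and outside MII to between 25.9 and 252 FPKM. Of the 15 macrophage markers, Aif1 was left out of the sum after its values were seen, since it stood at 198 to 289 FPKM in spermatids. The other 14 summed to 398 and 280 FPKM in Tex10-deficient and 381 and 692 FPKM in wild-type spermatogonia, and to 257 and 369 FPKM in Tex10-deficient and 359 and 714 FPKM in wild-type MII spermatocytes. In spermatogonia and MII spermatocytes, where Apoe was higher in the Tex10-deficient libraries, these macrophage sums overlapped between genotypes and were highest in a wild-type library. With Aif1 they ran from 282 to 403 FPKM in Tex10-deficient and 384 to 695 FPKM in wild-type spermatogonia, and from 261 to 384 FPKM in Tex10-deficient and 380 to 741 FPKM in wild-type MII spermatocytes. At least 1 library of every group had each macrophage marker above 0, except C1qa and Tyrobp in Tex10-deficient spermatids, C1qc and Ctss in wild-type MI spermatocytes, and C1qc, Cd68 and Tyrobp in wild-type spermatids. In MII, where Apoe was higher in the Tex10-deficient libraries, all 11 spermatocyte markers were lower there (51.5% of all genes). Of the 11, 8 had an unadjusted p under 0.05 (13.3% of all genes) and 0 were called in limma (0.00763%). Their median log2 change was −1.44. Of the 15 macrophage markers 0 were higher in Tex10-deficient MII libraries (median −0.92), and of 10 spermatid markers 1 was (median −0.87), with 0 called in both lists. Of the 10 Leydig cell markers 7 were higher in Tex10-deficient MII libraries (median 0.24, against −0.02 over all genes). In spermatogonia 8 of these 10 were higher (median 0.35, against −0.01 over all genes). Called Leydig cell markers numbered 0 in MII (0.00763% of all genes) and 0 in spermatogonia (0.0153%). In spermatogonia, where Apoe had its largest change, 4 T lymphocyte markers summed to 62.1 and 69.7 FPKM in Tex10-deficient and to 54.4 and 16.7 FPKM in wild-type libraries, without overlap. Of these 4, 3 had an unadjusted p under 0.05 (6.6% of all genes) and 1 was called (0.0153%). This was Cd3g, a subunit of the T cell receptor complex, at 21.6 and 17.6 FPKM in Tex10-deficient and 4.53 and 2.28 FPKM in wild-type spermatogonia (log2 change 2.27, SE 0.28, limma adjusted p = 0.010). In spermatogonia 0 genes were called without Tex10-deficient replicate 1 or without wild-type replicate 2, Cd3g included. The part of these cells in the Apoe values was not tested.

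The same macrophage sums are given for the libraries in which Apoc2 was highest. In MI spermatocytes they were 17.6 and 19.2 FPKM in Tex10-deficient and 12.2 and 12.4 FPKM in wild-type libraries over all 15 markers, and without Aif1 they ran from 7.02 to 8.98 FPKM in Tex10-deficient and from 5.33 to 6.97 FPKM in wild-type libraries. In spermatids they ran from 213 to 327 FPKM in Tex10-deficient and from 217 to 279 FPKM in wild-type libraries over all 15, and without Aif1 from 15.1 to 38.0 FPKM in Tex10-deficient and from 8.17 to 8.71 FPKM in wild-type libraries. The part of macrophages in the Apoc2 values was not tested.

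**Figure D2:**
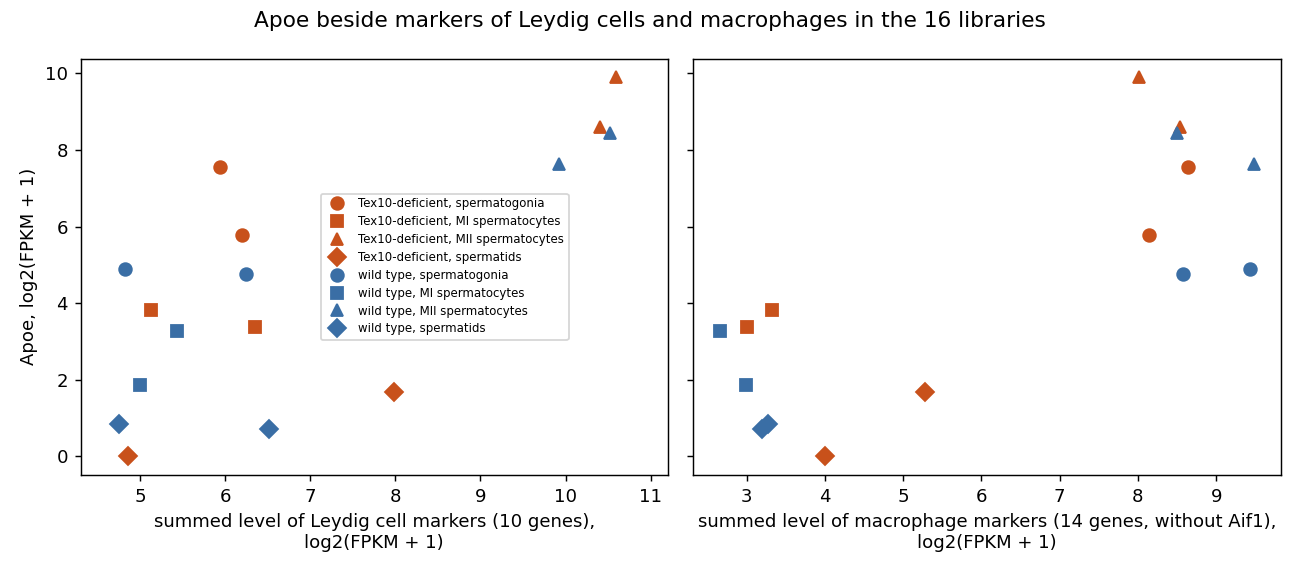
Apoe in each of the 16 libraries against the summed level of 10 Leydig cell markers (left) and of 14 macrophage markers without Aif1 (right), all as log2(FPKM + 1). Each symbol is 1 library, with colour for genotype and shape for cell type. The 4 MII libraries hold the highest Leydig sums (970 to 1542 FPKM) and high Apoe, and in spermatogonia Apoe is higher in the Tex10-deficient libraries, at macrophage sums that overlap those of the wild type.

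Apoc1, which lies between Apoc2 and Apoe, had no common direction. In spermatogonia it stood at 6.35 and 0 FPKM in Tex10-deficient and 4.55 and 3.08 FPKM in wild-type libraries. In MI spermatocytes the values were 0.605 and 0 FPKM in Tex10-deficient and 1.06 and 0.799 FPKM in wild-type libraries. The genotypes overlapped in spermatogonia, and in MI spermatocytes both Tex10-deficient values were the lower ones, as for 18.4% of all genes there. In MII spermatocytes Apoc1 stood at 79.6 and 32.6 FPKM in Tex10-deficient and 38.8 and 42.8 FPKM in wild-type libraries. In spermatids it stood at 0.594 and 6.04 FPKM in Tex10-deficient and 0.635 and 0.705 FPKM in wild-type libraries. Both groups overlapped. The library with 6.04 FPKM was also the Tex10-deficient spermatid library with the higher Leydig sum (252 against 28.1 FPKM in its replicate) and Sertoli sum (200 against 35.9 FPKM), and their part in its value was not tested. The average log2 change of Apoc1 was −0.02 (SE 0.39, limma adjusted p = 0.99).

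Apoe and Apoc1 followed each other across cell types but not in a fixed ratio. Where both were above 1 FPKM, Apoe was 29.4 times Apoc1 in the first Tex10-deficient spermatogonia library, 12 and 11.9 times in Tex10-deficient MII libraries and 0.365 times in the second Tex10-deficient spermatid library. In the wild type it was 5.70 and 9.36 times in spermatogonia, 8.17 times in 1 MI library and 8.93 and 4.59 times in MII libraries. The Tex10-deficient ratios in spermatogonia and MII were thus all above the wild-type ones, with 1 library of Tex10-deficient spermatogonia giving no ratio because Apoc1 was listed at 0.

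Tomm40 and Bcl3, the flanking genes on the far side of Apoe, did not move with Apoc2 either. Tomm40 stood at 4.33 and 4.54 FPKM in Tex10-deficient and 8.32 and 5.31 FPKM in wild-type spermatogonia, and at 4.74 and 1.77 FPKM in Tex10-deficient and 3.10 and 2.01 FPKM in wild-type MI spermatocytes. It stood at 9.93 and 7.23 FPKM in Tex10-deficient and 8.80 and 2.63 FPKM in wild-type MII spermatocytes, and at 3.53 and 5.11 FPKM in Tex10-deficient and 3.97 and 1.44 FPKM in wild-type spermatids. The genotypes overlapped except in spermatogonia, where both Tex10-deficient values were the lower ones, as for 19.6% of all genes. The average log2 change was 0.24 (SE 0.25, limma adjusted p = 0.77).

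Bcl3 was at 1 to 2 FPKM or less outside MII. It stood at 1.22 and 1.78 FPKM in Tex10-deficient and 0.708 and 2.08 FPKM in wild-type spermatogonia, and at 9.27 and 5.27 FPKM in Tex10-deficient and 8.91 and 6.51 FPKM in wild-type MII spermatocytes. In MI spermatocytes it was 0.110 and 0.572 FPKM in Tex10-deficient and 0.164 and 0 FPKM in wild-type libraries, and in spermatids 0 and 0.315 FPKM in Tex10-deficient and 0 in both wild-type libraries. The genotypes overlapped in all 4 cell types, and the average log2 change was 0.13 (SE 0.18, limma adjusted p = 0.84).

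In none of the genotype comparisons was any of the 5 neighbours called at a limma adjusted p under 0.05. The count was 0 of 5 in spermatogonia, where 0.0153% of all tested genes were called, 0 of 5 in MI spermatocytes (0.168%), 0 of 5 in MII spermatocytes (0.00763%), 0 of 5 in spermatids (0.0%), 0 of 5 for the average (0.0992%) and 0 of 5 for the F test between cell types (0.0%). At an unadjusted p under 0.05 there was 1 of 5 in spermatogonia (6.6% of all genes) and 1 of 5 for the average (11.0%), Apoe both times, and 0 of 5 in MI spermatocytes (5.84%), MII spermatocytes (13.3%) and spermatids (2.17%). A count of 0 among 5 is near these backgrounds. Tex10 itself was called by the same test in MI spermatocytes (limma adjusted p = 0.012) and for the average (0.00049). It was not called in spermatogonia (0.10), MII spermatocytes (0.095) or spermatids (0.23), although it was lower without overlap in each. A count of 0 therefore does not show that the neighbours were unchanged. The count of called genes over the whole table depended on single libraries and on the fit: in MII spermatocytes it was 1, but 1254 without wild-type MII replicate 1, 237 without Tex10-deficient MII replicate 2 and 268 with the replicate number as a block, and for the average it was 13, but 513 without wild-type MII replicate 1. None of the 5 neighbours was called in these alternatives.

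For Apoe, Apoc1 and Bcl3 the differences between cell types were larger than those between genotypes. In the Tex10-deficient libraries 3 of 5 neighbours (Apoe, Apoc1 and Bcl3) differed across the 4 cell types by the limma F test, where 89.4% of all genes did, and in the wild type the same 3 did, where 88.6% of all genes did. With the replicate number as a block within each genotype Tomm40 passed as well, at an adjusted p of 0.037 in Tex10-deficient and 0.024 in wild-type libraries, where 91.5% of all genes passed in Tex10-deficient and 91.1% in wild-type libraries. Without the MII libraries Apoc1 no longer passed in either genotype. Apoe fell by 3.07 on the log2 scale in MI spermatocytes against spermatogonia within the Tex10-deficient libraries (SE 0.65, limma adjusted p = 0.0016) and by 2.25 in the wild type (SE 0.65, adjusted p = 0.010), a fall shared by 24.7% of all genes in Tex10-deficient and 25.7% in wild-type libraries. In MII against MI libraries it was higher by 5.65 in Tex10-deficient (adjusted p = 8.7e-06) and by 5.46 in wild-type libraries (adjusted p = 2.3e-05), where 31.6% of all genes were called higher in Tex10-deficient and 30.0% in wild-type libraries. Bcl3 was higher in MII than in MI libraries by 2.60 in Tex10-deficient (adjusted p = 2.9e-05) and by 3.0 in wild-type libraries (adjusted p = 2.2e-05), and Apoc1 by 5.36 in Tex10-deficient (adjusted p = 4.8e-05) and by 4.44 in wild-type libraries (adjusted p = 0.00034), all in limma. These steps cover the libraries whose somatic markers differ most, and the part of somatic RNA in them was not tested.

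In the wider neighbourhood no gene was called between genotypes either. The annotation holds 38 genes that begin within 250 kb of Apoc2, itself included (25 protein-coding), counting from the lower coordinate of each. Besides Apoc2, 14 of them were tested genes of the table. For the average over cell types 0 of 14 were called (0.0992% of all genes) and 2 (Apoe and Bcam) had an unadjusted p under 0.05 (11.0% of all genes). Their changes ran from −0.15 to 1.04 with a median of 0.09, against a median of −0.02 over all genes, and 10 of 14 were higher in the Tex10-deficient libraries (46.8% of all genes). In single cell types the medians of the 14 were −0.05 in spermatogonia, 0.21 in MI spermatocytes, 0.25 in MII spermatocytes and 0.17 in spermatids, with 0 called in each. Within 1 Mb there were 36 tested genes, of which 0 were called, with a median of 0.14.

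**Figure D3:**
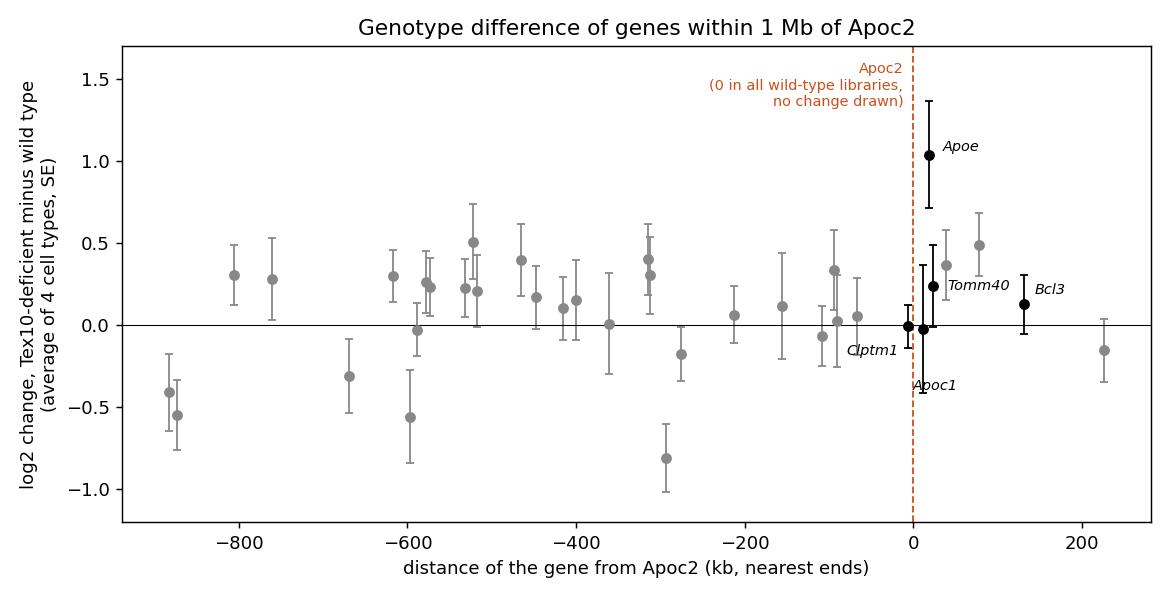
Average log2 change (Tex10-deficient minus wild type, 4 cell types) of the tested genes within 1 Mb of Apoc2, against the distance between the nearest ends of the gene and Apoc2 in kb. Points are genes and bars are the SE of the limma fit, with chosen neighbours in black and the dashed line at Apoc2. Apoe at 1.04 is the highest point, and Clptm1 and Apoc1, on either side of Apoc2, lie at −0.01 and −0.02.

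Within 100 kb, 8 genes of the table were tested. Apart from Clptm1, Apoc1, Apoe and Tomm40 they were Zfp296, a zinc finger gene (average log2 change 0.03, SE 0.28), Clasrp, an SR-type splicing protein (0.05, SE 0.23), Pvrl2, the cell adhesion molecule nectin-2 (0.37, SE 0.21), and Bcam, a laminin receptor (0.49, SE 0.19), with limma adjusted p of 0.99, 0.95, 0.55 and 0.37. Bcam stood at 5.87 and 4.77 FPKM in Tex10-deficient and 2.50 and 1.35 FPKM in wild-type MII spermatocytes. This separation had the smallest adjusted p of the 14 genes in any genotype comparison, at 0.18 in limma with a log2 change of 1.13 (SE 0.38). In MI spermatocytes Bcam stood at 0.537 and 0.654 FPKM in Tex10-deficient and 0.334 and 0 FPKM in wild-type libraries, and in spermatids at 0.118 and 0.534 FPKM in Tex10-deficient libraries and at 0 in both wild-type ones. Both Tex10-deficient values of Bcam were thus the higher ones in MI, MII and spermatids (15.7%, 17.3% and 11.7% of all genes), and the genotypes overlapped in spermatogonia. None of the 8 had the absence from wild-type libraries that Apoc2 showed. Apoc2 was the only gene of the table with that absence, so this says nothing about the 8 in particular.

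Gemin7, a subunit of the SMN complex, begins between 100 and 250 kb away and was singled out after its values were seen, because its genotype difference changed direction. It stood at 2.98 and 0.852 FPKM in Tex10-deficient and 6.81 and 3.32 FPKM in wild-type spermatogonia. In MI spermatocytes it stood at 6.45 and 5.14 FPKM in Tex10-deficient and 1.30 and 2.38 FPKM in wild-type libraries. In spermatids it stood at 8.43 and 6.87 FPKM in Tex10-deficient and 6.35 and 3.14 FPKM in wild-type libraries. The genotypes did not overlap in these 3 cell types, with log2 changes of −1.10 in spermatogonia (19.6% of all genes separated downward), 1.28 in MI spermatocytes (15.7% upward) and 0.64 in spermatids (11.7% upward). None of the 3 changes was called (limma adjusted p = 0.73, 0.69 and 1), nor was the difference between cell types (adjusted p = 0.69). Gemin7 overlaps Zfp296 on the other strand, as the annotated antisense gene Gm20512 does Tomm40, and whether the counting used strand is not given.

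**Figure D4:**
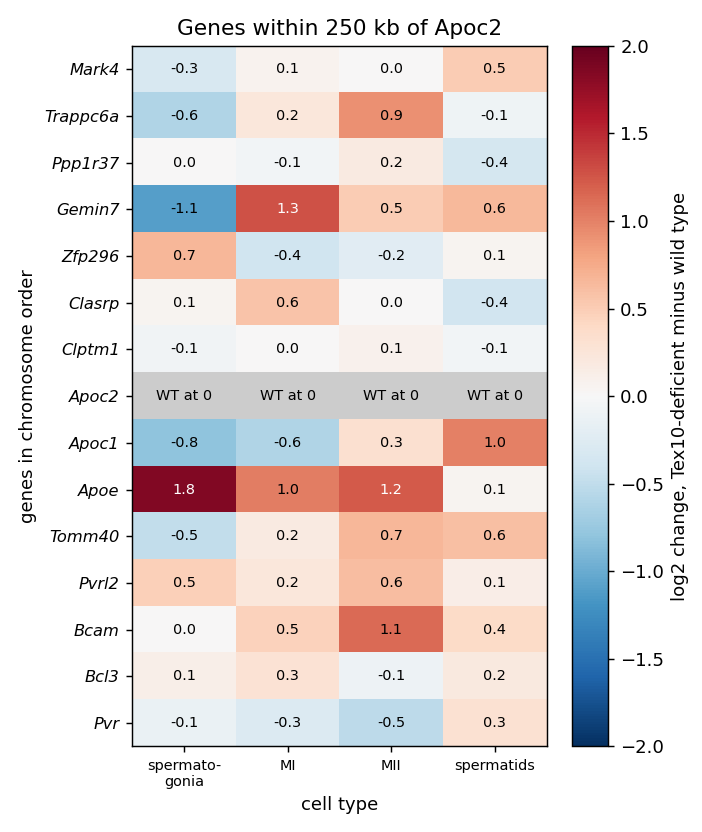
Log2 change between genotypes (Tex10-deficient minus wild type), by cell type, for the 15 genes of the table within 250 kb of Apoc2, in chromosome order. Red is higher and blue lower in the Tex10-deficient libraries, and the row of Apoc2 is grey because its wild-type libraries were at 0. Apoe has the deepest red in spermatogonia (1.84), and Clptm1 is pale throughout.

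Among genes that work with these proteins elsewhere in the genome, 0 were called, which is near the share over all genes. Of 40 further lipoprotein genes (apolipoproteins, lipases, receptors and transporters) 20 were in the table, and 0 were called in any cell type or in the average. Over all genes 0.0992% were called in the average, and at most 0.168% in a cell type (MI). Their median average change was 0.08, against −0.02 over all genes, with 14 of 20 higher (46.8% of all genes). Lpl, the lipase that Apoc2 activates, averaged 1.45 FPKM in Tex10-deficient and 5.36 FPKM in wild-type spermatogonia, and 11.7 FPKM in Tex10-deficient and 13.1 FPKM in wild-type MII spermatocytes, and was below 1 FPKM elsewhere (average log2 change −0.44, SE 0.20, limma adjusted p = 0.45). Lipg, endothelial lipase, had the smallest adjusted p of the list at 0.24, with an average change of 0.57 (SE 0.18), and stood at 48.1 FPKM in Tex10-deficient and 17 FPKM in wild-type MII spermatocytes. Lrp1, a receptor for Apoe, averaged 175 FPKM in Tex10-deficient and 148 FPKM in wild-type MII spermatocytes.

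Of 18 genes of the liver X receptors and their targets, sterol-responsive regulators that drive the Apoe cluster in macrophages, 13 were in the table, 11 of 13 were higher on average in the Tex10-deficient libraries (46.8% of all genes) and 0 were called (0.0992% of all genes). Their median was 0.13, against −0.02 over all genes, and the list was chosen with earlier results known. Lpcat3, with the highest mean level of the 13, went the other way (average log2 change −0.26, SE 0.18, limma adjusted p = 0.64). It averaged 35.8 FPKM in Tex10-deficient and 51.1 FPKM in wild-type MI spermatocytes. Nr1h3, the receptor LXR alpha, was named outside the rule, with the lowest mean level of the 13 and the smallest adjusted p for the average. It stood at 0.658 FPKM in Tex10-deficient and 0.0671 FPKM in wild-type spermatogonia. In MII spermatocytes it stood at 4.16 FPKM in Tex10-deficient and 1.48 FPKM in wild-type libraries (average log2 change 0.43, SE 0.21, limma adjusted p = 0.48). Abca1, the cholesterol exporter, averaged 112 FPKM in Tex10-deficient and 80.8 FPKM in wild-type MII spermatocytes (0.31, SE 0.28, adjusted p = 0.72).

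Partners of the flanking genes were likewise uncalled. Among 20 genes of import through the mitochondrial membranes, relatives of Tomm40 by function, 16 were in the table. For the average 0 of these were called (0.0992% of all genes), with a median of 0.04, against −0.02 over all genes. Tomm22, a receptor subunit of the same pore complex, averaged 183 FPKM in Tex10-deficient and 337 FPKM in wild-type MI spermatocytes and had an average change of −0.64 (SE 0.16, limma adjusted p = 0.16). Of 14 NF-kB and I-kB genes 11 were in the table and 0 were called for the average (0.0992% of all genes). Their median was 0.11, against −0.02 over all genes. Nfkb1, whose p50 product pairs with Bcl3, had the smallest adjusted p of the list for the average. It stood at 17.8 FPKM in Tex10-deficient and 10.8 FPKM in wild-type MII spermatocytes (average log2 change 0.35, SE 0.19, limma adjusted p = 0.52). Of 7 genes listed beside Clptm1 (its relative Clptm1l and GABA-A receptor subunits) only Clptm1l was in the table, with an average change of −0.18 (SE 0.16, limma adjusted p = 0.72).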

How the data were processed

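The authors deposited FPKM values per gene, to which 1 had been added (smallest deposited value 1); the 1 was subtracted, and 3.33% of values were then 0. Per the submitters' processing notes, reads were handled with STAR 2.7.6a, Cufflinks 2.2.1, Trim Galore 0.6.3, FastQC 0.10.1 and cutadapt on build mm10. The sources used here give no annotation, filter or strand setting, and depth is unknown. Of 13101 genes, 1 was left out because a cell held a letter. Genes with at least 1 FPKM in 2 libraries (13099) were put on the log2(FPKM + 1) scale. R 4.3.3 and limma 3.58.1 (lmFit, eBayes with trend) gave a single fit of 8 groups, with p-values adjusted over all of them (Benjamini-Hochberg) and a threshold of 0.05. The steps were tested on simulated data. Across cell types of the wild type, same-numbered libraries deviated together (6 of 6 correlations from 0.143 to 0.358), and across those of the Tex10-deficient mice 4 of 6 correlations were over 0.1 (−0.082 to 0.418), so blocked values are given for the tests across cell types. Python 3.11.15, pandas 2.3.3, matplotlib 3.10.9 and GENCODE M21 were used. Members, gene lists and naming rules were chosen with earlier results of these data known. Named by rule were the 6 genes, Tex10, tested genes within 100 kb, the 10 profiles most like Apoc2 and genes of the highest mean level in each list. Lpl, Lipg, Nfkb1, Nr1h3, Gemin7 and single marker genes were named outside these rules. Alternatives were pseudocounts of 0.1 and 5, no filter or 5 FPKM, median-of-ratios or quantile scaling, eBayes without trend, array weights, a replicate block, cell types from the label field, no MII libraries, only the 4 libraries compared, windows of 100 kb and 1 Mb, and each library left out.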

Additional observations from a re-analysis of the deposited data

How the results depend on the processing

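The counts of neighbours called between genotypes were the same under all alternatives run, except where cell types were taken from the label field: then 2 of 5 were called in MI spermatocytes (Apoe and Bcl3), 3 in MII spermatocytes (Apoc1, Apoe and Bcl3) and 2 by the F test between cell types (Apoe and Bcl3), where 0 were called by title. That field goes against the nearest wild-type profile in 6 of 8 Tex10-deficient libraries. Across cell types, where Apoe, Apoc1 and Bcl3 passed in both genotypes, Clptm1 joined them in both with quantile normalization. Tomm40 joined in both genotypes with the block within genotype, and in the wild type with the shared block, with array weights, without WT MII replicate 2 and without the MII libraries. Apoc1 was lost in both without the MII libraries, and in Tex10-deficient libraries with cell types from the field. With single libraries left out, the genes called over the whole table ran from 0 to 35 in spermatogonia (2 with all libraries; 35 without WT spermatogonia replicate 1), from 0 to 47 in MI (22; 0 without WT MI replicate 2, 47 with WT MII replicate 1 or replicate 2 left out), from 1 to 1254 in MII (1), from 0 to 1 in spermatids (0) and from 5 to 513 for the average (13). The average change of Apoe ran from 0.82 to 1.26, with limma adjusted p from 0.088 to 1. Tomm40 ran from 0.0585 without WT MII replicate 2 to 0.417 without WT MII replicate 1, and Bcl3 from 0.0194 without WT spermatogonia replicate 1 to 0.59 with a pseudocount of 0.1, neither called in any. The near-zero averages changed sign, and Apoc1 was −0.61 with a pseudocount of 0.1: Apoc1 was 0.10 with a pseudocount of 5, and Clptm1 was 0.0177 with median-of-ratios scaling and 0.071 with quantile normalization. With single libraries left out, Apoc1 ran from −0.3826 to 0.337 (its positive values from 0.0017) and Clptm1 from −0.0737 to 0.0586 (its positive values from 0.0005); the causes were not tested. The mean of Apoc2 over Tex10-deficient libraries was 7.22 FPKM and ran from 4.73 to 8.25 FPKM over the alternatives, with the lowest value when MI replicate 1 was left out. With the replicate number as a block, 0 of 5 neighbours were called in each genotype comparison, and Apoe averaged 1.04 with adjusted p = 0.16. The deviations of same-numbered Tex10-deficient and wild-type libraries had correlations of 0.203, 0.004, 0.308 and −0.127 in spermatogonia, MI, MII and spermatids. These mixed values do not settle whether the numbers pair the genotypes. The limits are 2 libraries per group, an unknown depth behind low FPKM, and exact zeros that may be failed estimates.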

Other observations

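Grouped by the label field in place of the title, Apoc2 in the Tex10-deficient libraries came to pairs of 6.41 and 0 FPKM (spermatogonia), 3.83 and 2.06 FPKM (MI), 24.7 and 7.47 FPKM (MII) and 8.15 and 5.19 FPKM (spermatids). In either grouping it was above 0 in at least 1 Tex10-deficient library of each cell type, and at 0 in all wild-type libraries, whose fields and titles name the same types. Apoe grouped by the field would pair 187 with 952 FPKM in Tex10-deficient spermatogonia and 54.3 with 390 FPKM in MI spermatocytes.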
